A study of Homo sapiens with 96 samples.

Results

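The genes for 9 selenoproteins (GPX1, GPX3, GPX4, TXNRD2, SELENOP, SELENOW, SELENOH, SELENOT and SEPHS2) and for the redox protein thioredoxin (TXN) were followed through 12 groups of libraries. They were taken by symbol from the deposited expression table, and all 10 were found among its 58434 genes. All cells derive from H9, an established line of human embryonic stem cells. Neural progenitor cells (NPC, day 0) were sequenced before differentiation. Co-cultures described as neurons with astrocytes were sequenced on day 10, either unexposed (control) or exposed to 1 of 5 developmental neurotoxicants (acrylamide, chlorpyrifos, fluoxetine hydrochloride, methyl mercury chloride or valproic acid sodium), each at concentrations labelled IC5 and IC20/100. The labels do not spell out IC20/100, and they give neither molar concentrations nor how long cultures were exposed. Stocks of chlorpyrifos, fluoxetine and methyl mercury were made in DMSO (0.25% in the culture), those of acrylamide and valproic acid in medium. Whether the control wells held DMSO is not stated. Each group has 8 libraries that are technical replicates of 1 experiment, so every p-value measures the spread between such libraries and not between independent cultures.

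Selenoproteins carry selenium in the amino acid selenocysteine, which is inserted at a UGA codon that would otherwise end translation. SEPHS2, itself a selenoprotein, makes the selenophosphate from which selenocysteine is built on its own transfer RNA. SELENOP is secreted and carries selenium between cells, and the brain takes it up through receptors of the lipoprotein receptor family. The glutathione peroxidases reduce peroxides (GPX1 in the cytosol, GPX3 outside cells, GPX4 on membrane lipids), and TXNRD2 is the mitochondrial thioredoxin reductase. TXN, which is not a selenoprotein, passes electrons from a thioredoxin reductase to its targets through a pair of cysteines. SELENOW, SELENOH and SELENOT are small thioredoxin-like proteins. Methyl mercury binds selenols and thiols, and the messages for GPX1, SELENOW and SELENOH are known to be lost when selenium is short.

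What the members share, and what TXN lacks, can be read in their coding sequences. The lines below show codons from the annotated GENCODE 29 transcripts on GRCh38, 5′ to 3′ on the coding strand, each with 21 bases on either side where the coding sequence is long enough. Capitals mark the selenocysteine codon, and in TXN the codons 32 to 35 of the active site, whose first and last are cysteine codons.
GPX1: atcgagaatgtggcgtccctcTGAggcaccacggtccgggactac
GPX4: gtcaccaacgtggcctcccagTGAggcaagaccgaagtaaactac
TXNRD2: gaccccacggtgacaggctgcTGAgggtaa
SELENOW: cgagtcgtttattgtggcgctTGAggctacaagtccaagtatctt
SELENOH: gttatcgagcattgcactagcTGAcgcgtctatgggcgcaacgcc
SELENOT: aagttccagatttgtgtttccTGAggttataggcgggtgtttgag
SEPHS2: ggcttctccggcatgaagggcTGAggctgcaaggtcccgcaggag
SELENOP, first codon: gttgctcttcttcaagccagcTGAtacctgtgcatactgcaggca
SELENOP, last codon: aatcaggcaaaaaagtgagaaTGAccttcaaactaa
TXN: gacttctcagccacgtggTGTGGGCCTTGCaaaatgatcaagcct
The codon is number 49 of GPX1 (chr3:49358132-49358134, minus strand), 73 of GPX4 (chr19:1105403-1105405, plus strand), 13 of SELENOW (chr19:47780732-47780734, plus strand), 44 of SELENOH (chr11:57741816-57741818, plus strand), 49 of SELENOT (chr3:150622392-150622394, plus strand) and 60 of SEPHS2 (chr16:30445548-30445550, minus strand). In TXNRD2 it is codon 523 (chr22:19877111-19877113, minus strand), directly after a cysteine codon and 1 codon before the last. All of these lie in coding exons. Of the 8 members with a single selenocysteine codon, 7 have a glycine codon next (all but SELENOH), and 3 (SELENOW, SELENOH and SELENOT) have a cysteine codon 3 codons ahead of it, a spacing like that of the paired cysteines in TXN. SELENOP has 10 selenocysteine codons: the first is codon 59 (chr5:42808177-42808179, minus strand) and the other 9 lie at codon 300 or later. TXN has 0, and its site lies at chr9:110251382-110251393 on the minus strand.

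The libraries held 9.49 M to 29.6 M reads, with a median of 18.9 M, and the table gives each gene as a normalized read count, that is reads divided by 1 size factor per library. A value is a level in that unit, a difference is a log2 fold change fitted on log2(value + 2), and a gene is called at an adjusted p under 0.05. All 10 members passed the filter on low values in both fits. 1 library stood apart and touches several results: replicate 8 of methyl mercury IC20/100 had a deposited total of 20.95 M against 18.1 M to 19.0 M in the other 87 day 10 libraries. Its values were 2.39 times the median of the other 7 libraries of its group for SELENOH, 2.16 for SELENOW, 2.13 for GPX1, 2.07 for GPX4, 1.86 for TXN, 1.68 for SEPHS2 and 1.49 for TXNRD2, but 1.02 for GPX3, 0.989 for SELENOP and 0.819 for SELENOT. Over well expressed protein-coding genes that ratio had a median of 2.04 in the 338 genes whose longest transcript has up to 1000 bases and of 0.680 in the 3553 genes over 5000 bases. The part of transcript length in the results was not tested. Fits without that library stand beside the methyl mercury results that rest on it. Because the 88 day 10 libraries share 1 estimate of the spread, the library also changes the standard errors of other comparisons: with it they were 1.78 times as large for GPX1 and 1.65 times for SELENOW, but 0.993 times for GPX3 and 0.994 times for SELENOP.

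**Figure D1:**
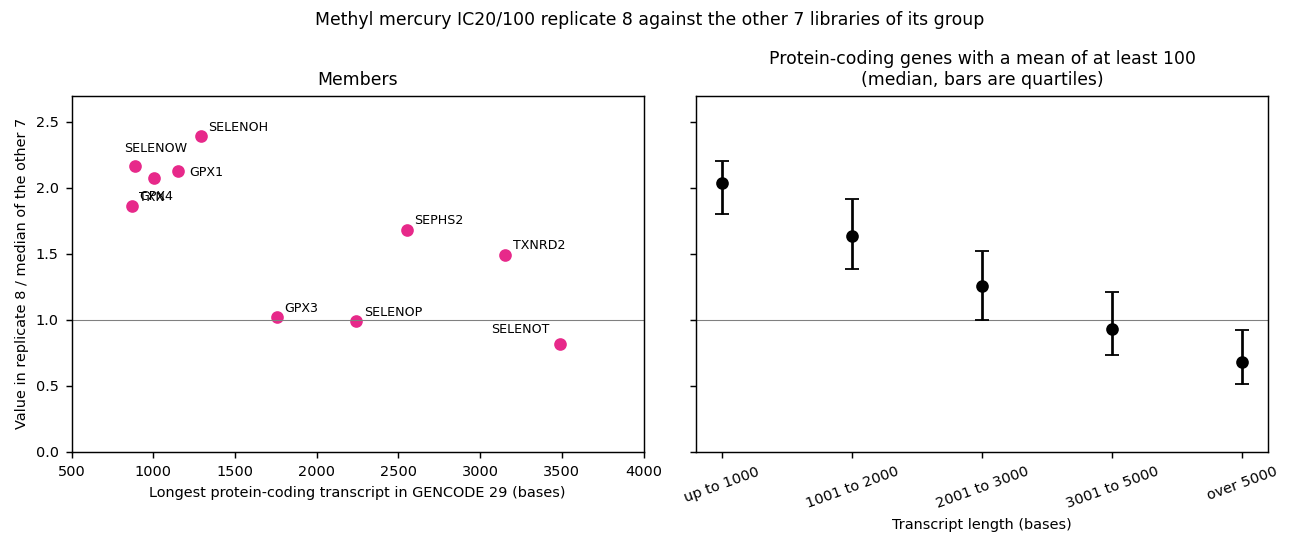
Left: value in methyl mercury IC20/100 replicate 8 divided by the median of the other 7 libraries of the group (y axis) against transcript length in bases (x axis), 1 point per member. Right: the same ratio over protein-coding genes with a mean of at least 100, as median and quartiles per length class. The ratio runs from 2.04 in the shortest class to 0.680 in the longest, and among the members it is lowest in SELENOT (0.819).

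Neuron and progenitor markers were present in every group (6 of 6 each at a mean of at least 10), and the 5 microglia and blood cell markers had means under 10. Of 6 astrocyte markers, AQP4 and AGT were under 10 in the controls, GFAP was at 25.7 ± 14.6 and SLC1A3, which progenitors also express, at 1941 ± 198. The astrocyte sum in control (median 1959) was thus mostly SLC1A3, so the astrocyte sums below do not measure astrocytes alone. In bulk samples, fewer cells of a type and less RNA per cell cannot be told apart. Processed pseudogene copies of GPX1, SELENOW, SELENOT, SEPHS2 and TXN were at 4.96 or less in every library. SELENOH shares 8.98% of its exonic bases with AP001931.1 on its own strand and lies inside TMX2-CTNND1 (median value 24.9), so its values are uncertain to that extent. On the opposite strand, SELENOP shares 25.5% of its exonic bases with CCDC152 (median value 1.79, highest 10.9) and 10.6% with AC008945.1. SELENOT shares 1.48% with SERP1 (median value 1858). The library kit keeps strand, but whether the counting used it is not stated.

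Differentiation moved 9 of the 10 genes: 3 rose and 6 fell between NPC and control, where 33.9% of all tested genes rose and 36.8% fell. The largest falls were in the mitochondrial reductase and the secreted peroxidase. TXNRD2 ranged from 122 to 163 (median 138) in NPC and from 43.6 to 70.7 (median 47.3) in control, a log2 difference of -1.43 (SE 0.092, adjusted p = 4.36e-08). GPX3 ranged from 88.7 to 173 (median 147) in NPC and from 31.0 to 114 (median 56.9) in control, -1.22 (SE 0.27, adjusted p = 0.00153). The groups did not overlap for TXNRD2 and did for GPX3.

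The other peroxidases fell less: GPX1 from 1216 ± 81.9 to 954 ± 70.7 (mean ± SD, n = 8), -0.38 (SE 0.044, adjusted p = 8.17e-06), and GPX4 from 2301 ± 174 to 1921 ± 137, -0.28 (SE 0.037, adjusted p = 2.67e-05). Among the thioredoxin-like proteins SELENOH fell from 1631 ± 95.9 to 1027 ± 119.9, -0.68 (SE 0.069, adjusted p = 2.40e-06), and SELENOT from 1249.9 ± 60.2 to 967 ± 111, -0.43 (SE 0.052, adjusted p = 1.22e-05). SELENOW went the other way and rose from 1354 ± 81.8 to 1625 ± 90.3, 0.24 (SE 0.041, adjusted p = 0.000225). So did SEPHS2, from 611 ± 42 to 782 ± 33.1, 0.37 (SE 0.045, adjusted p = 1.34e-05), and TXN, from 1424 ± 94.2 to 1694 ± 113, 0.22 (SE 0.038, adjusted p = 0.000215). SELENOP was at 43.8 ± 10.2 in NPC and 41.2 ± 5.48 in control and was not called (-0.036, SE 0.15, adjusted p = 0.840). Several marker lists moved with this comparison. In NPC and control, the sums were 3054 to 4251 and 1299.7 to 1688 for mesenchymal cells and pericytes, 759.8 to 1239.7 and 1775 to 2435 for astrocytes, and 59282 to 65683 and 79746 to 86271 for neurons. They were 923 to 1424 and 439.6 to 542 for pluripotent cells, and 97.0 to 283 and 22.9 to 64.7 for endothelial cells. In control PECAM1, CDH5 and VWF were under a mean of 10, leaving 1 of 4 endothelial markers above it, and all 5 mesenchymal and all 4 pluripotent markers were above it in both groups. For progenitor markers the sums were 85816 to 90343 in NPC and 91517 to 98235 in control, so they were higher after differentiation. None of these pairs of ranges overlapped, and their part in the differences was not tested.

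**Figure D2:**
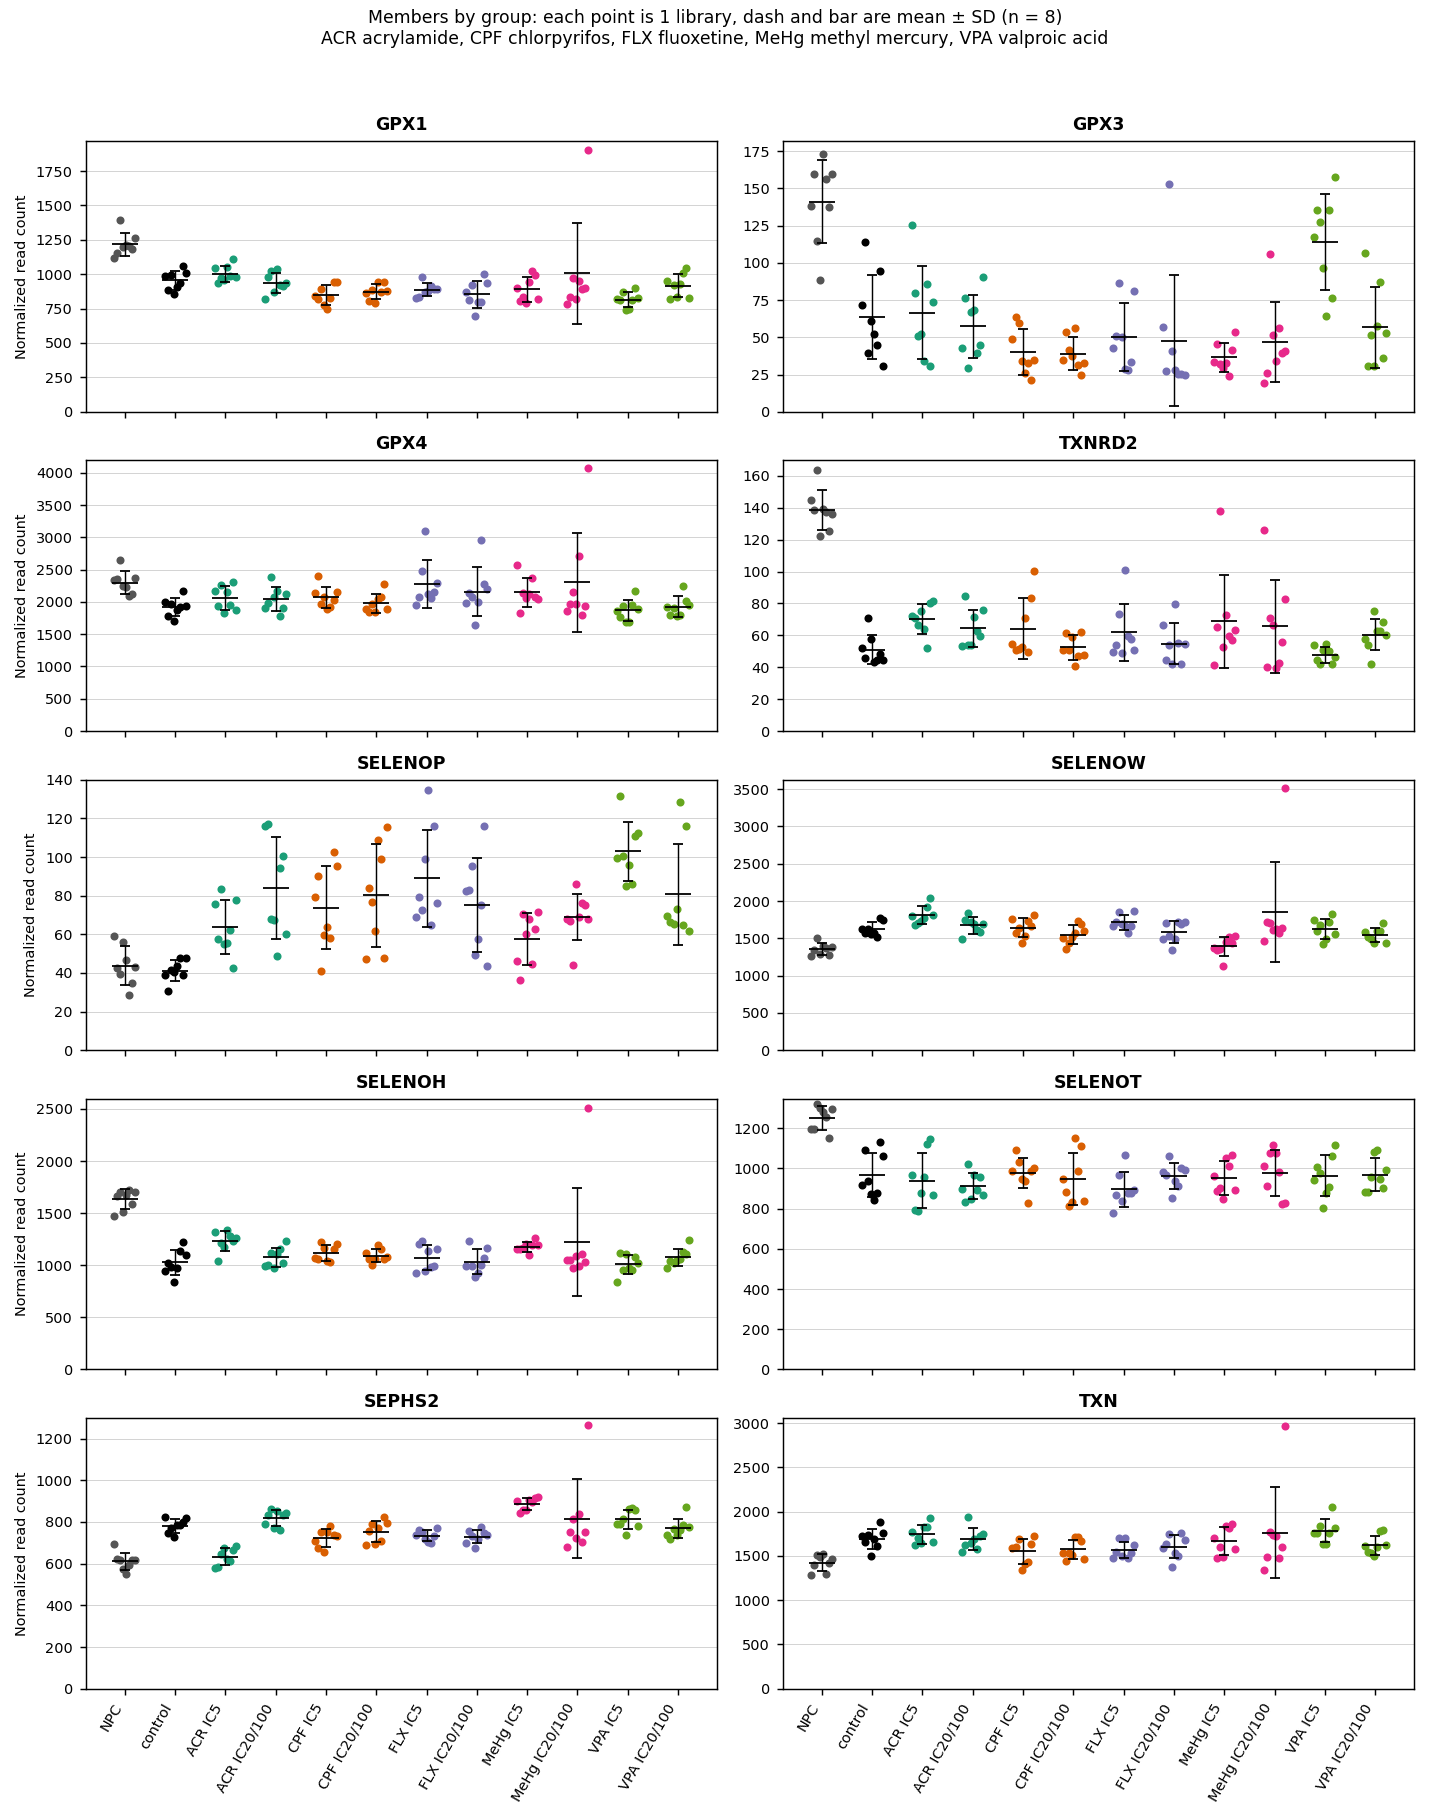
Normalized read count (y axis, linear from 0) of each member in the 8 libraries of each of the 12 groups (x axis), 1 point per library, with the mean and SD. SELENOP lies low in NPC and control and higher in the exposed groups, SEPHS2 is lowest in NPC and acrylamide IC5 and highest in methyl mercury IC5, and the single high point of methyl mercury IC20/100 in 6 panels is replicate 8.

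With methyl mercury IC5, SEPHS2, the enzyme that supplies selenium for selenocysteine, rose, while SELENOW was lower in all 8 libraries than the control median but missed the threshold. SEPHS2 ranged from 726 to 822 (median 785) in control and from 843 to 918 (median 899.5) at IC5. All 8 exposed libraries were above the highest control. It rose by a log2 difference of 0.19 (SE 0.055, adjusted p = 0.0150), or 13.8%. It was the only member called at IC5, where 4.85% of all genes rose and 6.06% fell. Of the 10 members, 7 had an unadjusted p under 0.05. The share of all genes at that unadjusted threshold is not given, here or below, so such counts cannot be read as an excess.

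SELENOW ranged from 1523 to 1777 (median 1597) in control and from 1134 to 1529 (median 1403) at methyl mercury IC5. The 8 exposed libraries were all below the control median, and only the top of their range reached the control range. The fitted difference of -0.21 (SE 0.074, adjusted p = 0.0583) missed the threshold. Without replicate 8 of the IC20/100 group the same difference was called (-0.21, SE 0.044, adjusted p = 0.000413), as it was with the fit limited to the groups compared (adjusted p = 0.0171), on depth-scaled recovered reads (adjusted p = 0.0200) and with replicate numbers as a block (adjusted p = 0.0292). It was not called by edgeR on recovered reads (adjusted p = 0.0850) or without the filter (adjusted p = 0.109). Nor was it called with a pseudocount of 8 or without the run term.

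The other 8 members were not called against control at IC5. SELENOH was at 1178 ± 48.9 against 1027 ± 119.9 (0.22, SE 0.089, adjusted p = 0.11) and GPX4 at 2153 ± 225 against 1921 ± 137 (0.18, SE 0.084, adjusted p = 0.165). Leaving out the library that stood apart brought both past the threshold, SELENOH at 0.22 (SE 0.06, adjusted p = 0.00701) and GPX4 at 0.18 (SE 0.066, adjusted p = 0.0459). It gave 4 called members (3 higher, 1 lower), against 7.27% of all genes higher and 7.37% lower in that fit. GPX3 was at 36.6 ± 9.60 against 63.7 ± 28.4 (-0.68, SE 0.29, adjusted p = 0.137), TXNRD2 at 68.8 ± 29.3 against 51.0 ± 9.27 (0.35, SE 0.17, adjusted p = 0.197) and SELENOP at 57.5 ± 13.4 against 41.2 ± 5.48 (0.48, SE 0.19, adjusted p = 0.0909). GPX3 was below control on average and the other 2 above it, with overlapping libraries. Without replicate 8 of IC20/100 their adjusted p-values were 0.118, 0.166 and 0.0766. GPX1, SELENOT and TXN differed least, by -0.087, 0.0089 and 0.0024, with 95% intervals (normal) of -0.23 to 0.06, -0.10 to 0.12 and -0.12 to 0.12. Of the transcripts known to be lost when selenium is short, the values of GPX1, SELENOW and SELENOH are those given above, and MSRB1, a methionine sulfoxide reductase, was at 189.9 ± 66.4 against 177 ± 52.4 (0.15, SE 0.24, adjusted p = 0.787). By limma 0 of these 4 passed, 0 by edgeR, and 2 at an unadjusted p under 0.05. Without replicate 8 of IC20/100, SELENOH (higher) and SELENOW (lower) passed.

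Cell type markers moved with methyl mercury IC5 as well. The 6 neuron markers summed to 70097 to 79267 against 79746 to 86271 in control. These ranges did not overlap. Not every marker sum is given here. The sums of 3 other lists overlapped with control. They were 1795 to 2211 against 1775 to 2435 for astrocytes and 86154 to 94846 against 91517 to 98235 for progenitors. For mesenchymal cells and pericytes they were 916 to 1529.6 against 1299.7 to 1688. The part of these markers in the differences of SELENOW and SEPHS2 was not tested.

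At methyl mercury IC20/100, SEPHS2 and SELENOW did not stand apart from control. SEPHS2 ranged from 681 to 1263 (median 751) and differed by 0.026 (SE 0.055, adjusted p = 0.813), or -0.06 (SE 0.04, adjusted p = 0.369) without replicate 8. SELENOW ranged from 1470.3 to 3510.1 (median 1633) and differed by 0.15 (SE 0.074, adjusted p = 0.156), or 0.022 (SE 0.046, adjusted p = 0.828) without it. The members called were SELENOP and GPX4, both higher, where 8.21% of all genes rose and 7.6% fell. SELENOP ranged from 43.9 to 85.9 (median 68.5) and rose by 0.73 (SE 0.19, adjusted p = 0.00375), and by 0.72 (SE 0.20, adjusted p = 0.00658) without replicate 8. GPX4 ranged from 1801 to 4069 (median 1969) and differed by 0.23 (SE 0.084, adjusted p = 0.0470), a call that was lost without replicate 8 (0.12, SE 0.068, adjusted p = 0.291) and in 5 of the other 7 alternatives. Without that library 1 member was called, and 6.67% of all genes rose and 6.74% fell.

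Set against each other, the methyl mercury concentrations differed in 1 member, where 5.17% of all genes differed. SELENOW was lower at IC5 than at IC20/100, with a difference of -0.36 (SE 0.074, adjusted p = 0.000620), and of -0.23 (SE 0.046, adjusted p = 0.000451) without replicate 8, while the fit limited to these groups lost the call (adjusted p = 0.590). The mean of the 7 remaining IC20/100 libraries was 1620.2 ± 83.3 (n = 7). SEPHS2 was higher at IC5 by 0.16 (SE 0.055, adjusted p = 0.0686), and past the threshold without replicate 8, at 0.25 (SE 0.04, adjusted p = 6.53e-06), against a mean of 751 ± 57.3 in the 7 libraries. In that fit 2 members were called and 4.54% of all genes.

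Against the other compounds at IC5, methyl mercury cultures had the lowest SELENOW and the highest SEPHS2. Counted over the 10 members, 3 differed from acrylamide (36.8% of all genes), 2 from chlorpyrifos (11.2%), 3 from fluoxetine (8.29%) and 5 from valproic acid (25.7%). SELENOW was lower than with each of them: the difference was -0.38 (SE 0.073, adjusted p = 1.34e-05) against acrylamide, -0.22 (SE 0.074, adjusted p = 0.0389) against chlorpyrifos, -0.30 (SE 0.074, adjusted p = 0.00319) against fluoxetine and -0.21 (SE 0.074, adjusted p = 0.0290) against valproic acid. The libraries did not overlap with those of acrylamide and fluoxetine and did with the others. The chlorpyrifos call was lost without the filter (adjusted p = 0.0746), by edgeR (0.0680) and with only these groups (0.0543), and the valproic acid call without the filter (0.0541). At IC5 the neuron sum was 70097 to 79267 with methyl mercury, 75315 to 79375 with acrylamide and 77345 to 83629 with fluoxetine. It was 82455 to 89281 with chlorpyrifos and 83386 to 89461 with valproic acid, without overlap with methyl mercury. The progenitor sum of methyl mercury overlapped with fluoxetine and valproic acid and not with acrylamide and chlorpyrifos. The part of these markers in the differences between compounds was not tested.

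SEPHS2 was higher with methyl mercury than with acrylamide by 0.49 (SE 0.054, adjusted p = 6.31e-12), chlorpyrifos by 0.30 (SE 0.055, adjusted p = 3.55e-05) and fluoxetine by 0.28 (SE 0.055, adjusted p = 8.74e-05), in each case with no overlap of libraries. Against valproic acid it differed by 0.13 (SE 0.055, adjusted p = 0.0682). GPX3 was lower, with a difference of -0.73 (SE 0.29, adjusted p = 0.0399) against acrylamide and -1.56 (SE 0.29, adjusted p = 1.74e-05) against valproic acid. SELENOP was lower too, with -0.58 (SE 0.19, adjusted p = 0.0383) against fluoxetine and -0.80 (SE 0.19, adjusted p = 0.000571) against valproic acid. Against valproic acid GPX4 (0.22, SE 0.084, adjusted p = 0.0397) and SELENOH (0.24, SE 0.089, adjusted p = 0.0348) were higher. Both calls were lost without the filter and without the run term, and that of GPX4 also on depth-scaled reads (adjusted p = 0.0546) and with replicate numbers as a block (0.103). The acrylamide difference of GPX3 was lost without the filter (0.0751). The fluoxetine difference of SELENOP was lost without the filter (0.0746) and with only these groups (0.0956).

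Without replicate 8 of methyl mercury IC20/100, 8 members differed from valproic acid, where 29.7% of all genes did, with GPX1 (adjusted p = 0.00703), TXNRD2 (adjusted p = 0.0457) and SEPHS2 (adjusted p = 0.00573) called in addition. In the same fit GPX1 was called against acrylamide (adjusted p = 0.000285, 40.2% of all genes) and TXN against chlorpyrifos (adjusted p = 0.00563, 14.6%).

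Over all 10 exposures, 18 of the 100 member tests against control were called, 16 higher and 2 lower, and 9 of the 18 were SELENOP. At IC5, acrylamide changed 5 members (4 higher, 1 lower, where 20.5% of all genes rose and 21.5% fell), chlorpyrifos 1 (higher, with 9.92% and 9.75%), fluoxetine 2 (higher, with 5.47% and 5.94%) and valproic acid 3 (2 higher, 1 lower, with 14.5% and 12.4%). At IC20/100, 1 member was called with acrylamide (0.0497% of all genes rose and 0.00993% fell), 1 with chlorpyrifos (7.06% and 7.02%), 1 with fluoxetine (6.88% and 7.54%) and 1 with valproic acid (1.17% and 1.37%), each time SELENOP and higher. All exposures share the same 8 controls, so their results are not independent.

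**Figure D3:**
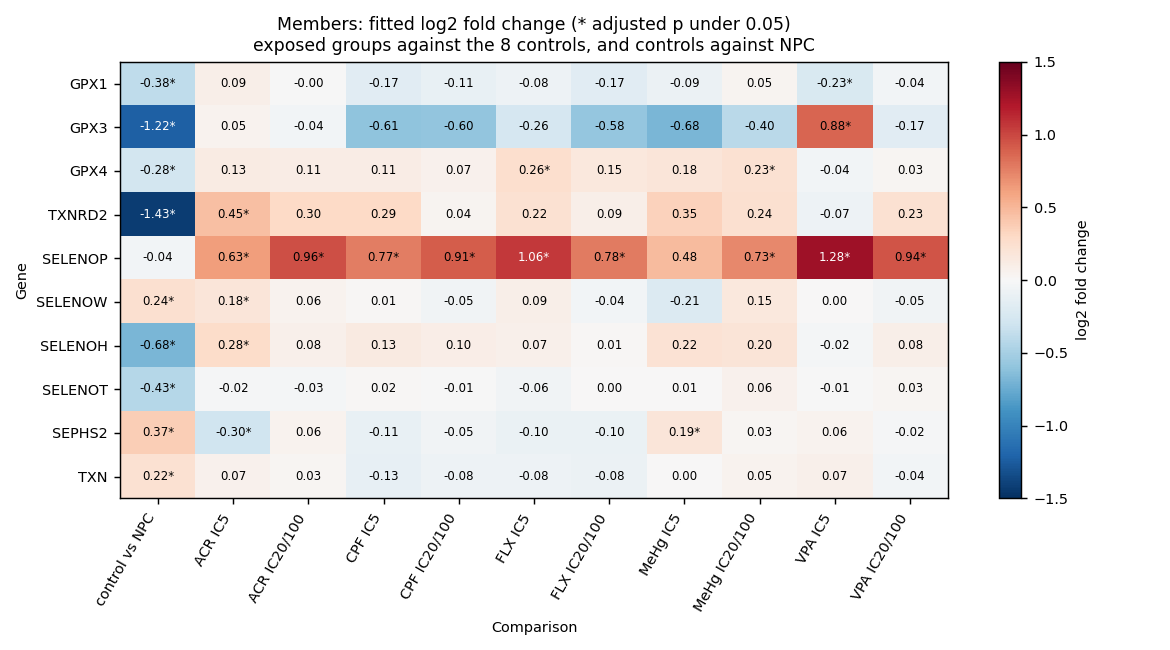
Fitted log2 fold change of each member (rows) for control against NPC and for each exposure against control (columns), with an asterisk at an adjusted p under 0.05. SELENOP is the only row called in nearly every exposure (9 of 10), and SELENOT and TXN are called only in the NPC column.

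SELENOP, the selenium carrier, was lowest in the control group of all 11 day 10 groups. Its control libraries ranged from 30.7 to 47.7 (median 41.2). With valproic acid IC5 they ranged from 85.0 to 132 (median 100.3), so that every exposed library was above every control, and the rise was 1.28 (SE 0.19, adjusted p = 5.62e-08), or 2.42-fold. With valproic acid IC5 mitochondrial genes took 3.05% ± 0.0836 of a library against 2.47% ± 0.0963 in control (mean ± SD, n = 8), and the pluripotent marker sum was 570.4 to 1117 against 439.6 to 542. The part of both in the valproic acid results was not tested. Valproic acid IC20/100 ranged from 61.7 to 129 (median 68.0), a difference of 0.94 (SE 0.19, adjusted p = 0.00103).

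With fluoxetine IC5 SELENOP ranged from 64.9 to 135 (median 77.8), a difference of 1.06 (SE 0.19, adjusted p = 1.60e-05) and with IC20/100 from 43.8 to 116 (median 78.8), a difference of 0.78 (SE 0.19, adjusted p = 0.00148). With acrylamide IC20/100 it ranged from 48.8 to 117 (median 81.3), without overlap (0.96, SE 0.19, adjusted p = 0.00650), and was 1 of 12 genes called in all. With acrylamide IC5 it ranged from 42.5 to 83.7 (median 59.9), a difference of 0.63 (SE 0.19, adjusted p = 0.00436). Chlorpyrifos gave 73.8 ± 21.5 at IC5 (0.77, SE 0.19, adjusted p = 0.00132) and 80.2 ± 26.6 at IC20/100 (0.91, SE 0.19, adjusted p = 0.000209). Valproic acid IC5, fluoxetine IC5, acrylamide IC20/100 and valproic acid IC20/100 did not overlap with control, and the other 6 groups did. With only the groups compared in the fit, the calls at IC20/100 were lost for acrylamide (adjusted p = 0.338) and valproic acid (adjusted p = 0.0735). The values are small, between 28.4 and 135 over all 96 libraries.

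The peroxidases responded to few exposures. GPX3 ranged from 64.1 to 158 (median 122) with valproic acid IC5, against the control range given above, and rose by 0.88 (SE 0.29, adjusted p = 0.0174). At valproic acid IC20/100 it was at 56.7 ± 27.4 (-0.17, SE 0.29, adjusted p = 0.873), and the concentrations differed by 1.05 (SE 0.29, adjusted p = 0.00678). In the other day 10 groups its means lay between 36.6 and 66.6. GPX1 fell with valproic acid IC5, where it ranged from 737 to 898 (median 816) against 853 to 1060.1 (median 962) in control (-0.23, SE 0.074, adjusted p = 0.0154). With 1 library of methyl mercury IC20/100 left out, GPX1 was also called lower with chlorpyrifos IC5 (-0.17, SE 0.042, adjusted p = 0.00107) and fluoxetine IC20/100 (-0.17, SE 0.042, adjusted p = 0.00217). In those fits 12.3% of all genes rose and 11.5% fell with chlorpyrifos IC5, and 8.9% rose and 9.21% fell with fluoxetine IC20/100. GPX4 rose with fluoxetine IC5, where it ranged from 1948 to 3102 (median 2143) against 1709.5 to 2168 (median 1931), a difference of 0.26 (SE 0.084, adjusted p = 0.0339). That call was lost without the filter (adjusted p = 0.0659), without the run term (0.0904) and with replicate numbers as a block (0.0851).

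In the thioredoxin system, TXNRD2 rose with acrylamide IC5, where it ranged from 51.9 to 81.5 (median 71.5) against 43.6 to 70.7 (median 47.3) in control (0.45, SE 0.17, adjusted p = 0.0255). All 8 exposed libraries were above the control median, and the groups overlapped. TXN was called in 0 of 10 exposures by limma and by edgeR, and in 1 at an unadjusted p under 0.05. Its differences ran from -0.13 with chlorpyrifos IC5 to 0.073 with valproic acid IC5, and all 10 normal 95% intervals lay between -0.25 and 0.19. The chlorpyrifos IC5 difference was called without replicate 8 of methyl mercury IC20/100 (-0.13, SE 0.035, adjusted p = 0.00391).

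SEPHS2 fell with acrylamide IC5, where it ranged from 577 to 686 (median 635) against 726 to 822 (median 785) in control, a difference of -0.30 (SE 0.055, adjusted p = 4.36e-06). The groups did not overlap. Acrylamide IC20/100 was at 818 ± 37.7, and the concentrations differed by -0.36 (SE 0.055, adjusted p = 9.18e-08), also without overlap. With all day 10 libraries in the fit, SEPHS2 was the only member called between the acrylamide concentrations, where 41.1% of all genes were. SELENOH was called there on depth-scaled reads (adjusted p = 0.0275), with only these groups (0.0366) and without methyl mercury IC20/100 replicate 8 (0.00650). SELENOW was called there only without that library (0.0369). Markers moved with acrylamide IC5 too: the neuron sum was 75315 to 79375, against the control range given above, the progenitor sum 73383 to 81611 against 91517 to 98235, and the endothelial sum 73.6 to 132 against 22.9 to 64.7. Mitochondrial genes took 3.09% ± 0.141 of a library there and 2.47% ± 0.0963 in control (mean ± SD, n = 8). Their part in the acrylamide results was not tested. Chlorpyrifos, fluoxetine and valproic acid had SEPHS2 means between 724 and 813. Without methyl mercury IC20/100 replicate 8, SEPHS2 was also called lower with chlorpyrifos IC5 (-0.11, SE 0.038, adjusted p = 0.0241). In that fit 12.3% of all genes rose and 11.5% fell with chlorpyrifos IC5.

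Of the thioredoxin-like selenoproteins, SELENOH rose with acrylamide IC5, ranging from 1039 to 1339 (median 1250.0) against 843 to 1219 (median 1002), a difference of 0.28 (SE 0.089, adjusted p = 0.00776), and SELENOW ranged from 1685 to 2043 (median 1786), a difference of 0.18 (SE 0.074, adjusted p = 0.0461). The SELENOW call was lost in 4 alternatives, among them edgeR (adjusted p = 0.0586) and the fit without the filter (0.0829). Both overlapped with control. SELENOT was called in 0 of 10 exposures by limma and by edgeR, and in 0 at an unadjusted p under 0.05. Its day 10 means lay between 896 and 978, and its 95% intervals between -0.17 and 0.18.

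Between concentrations of the other compounds few members differed. Chlorpyrifos and fluoxetine had 0 called by limma and by edgeR, and 0 at an unadjusted p under 0.05, where 0.0497% and 3.76% of all genes differed. Valproic acid had 1, GPX3, where 17% of all genes differed. Without methyl mercury IC20/100 replicate 8, GPX1 (adjusted p = 0.000548) and TXN (0.0153) were also called for valproic acid, and SELENOW (0.0473) for fluoxetine. With only the valproic acid groups in the fit, GPX1 was called as well (0.0128).

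Ordered by their means over the 12 groups, neighbouring groups rarely differed by more than the SD of their libraries. Ordering makes such steps small by construction, so they describe the levels and do not test whether groups differ. Of 11 steps between neighbours, 0 were larger than the larger SD of the pair for GPX1, GPX4 and TXN. For GPX1 this rests on replicate 8 of methyl mercury IC20/100: without it the group mean was 879 ± 69.0 (n = 7), and the step from acrylamide IC5 to NPC was beyond the SD. For the other 9 members the number of such steps was the same without it. For GPX3 the only such step led from acrylamide IC5 to valproic acid IC5, for SELENOP from NPC to methyl mercury IC5 and for SELENOW from methyl mercury IC5 to valproic acid IC20/100. For TXNRD2, SELENOH and SELENOT it was the step up to NPC. SEPHS2 had 2, from acrylamide IC5 to chlorpyrifos IC5 and from acrylamide IC20/100 to methyl mercury IC5. Within a group the members also differed in spread: the median coefficient of variation was 5.68% for SEPHS2, 7.22% for TXN and 7.55% for SELENOW, but 44.7% for GPX3 and 28.3% for SELENOP.

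Across the 11 day 10 group means, which share their libraries and normalization, SELENOH and TXNRD2 were most alike among the members (Pearson r = 0.84, and 0.83 with replicate 8 of methyl mercury IC20/100 left out of its group mean), followed by TXN and GPX3 (0.72 and 0.81). GPX4 and GPX3 (-0.63 and -0.62) and SEPHS2 and SELENOW (-0.60 and -0.75) ran opposite. The nearest genes named next have the highest of 11595 correlations over only 11 means. Such maxima can be high by chance, so they are given as a description. Among 11595 protein-coding genes, the profiles most like each member's changed with that library, and only GPX3 kept both of its nearest genes, COL18A1 (0.98, and 0.97 without it) and RIPOR2 (0.97 and 0.97). For SEPHS2 they were GLCCI1 (0.94 and 0.90) and ANKRD9 (0.93 and 0.94). For SELENOW they were TAGLN3 (0.89 and 0.84) and GAP43 (0.85 and 0.87), and for SELENOP WWOX (0.87 and 0.86) and LRRC40 (0.85 and 0.85). GPX1 had NME3 (0.95 and 0.95) and FLNA (0.92 and 0.94), and GPX4 had TPT1 (0.92 and 0.90) and RSRP1 (0.91 and 0.87). SELENOH had NFKBIE (0.92 and 0.94) and CCT6A (0.91 and 0.90), and SELENOT had STOML1 (0.90 and 0.83) and SAAL1 (0.84 and 0.82). The first genes of TXNRD2 and TXN lost most: SPTY2D1 went from 0.92 to 0.77 for TXNRD2, beside SAMD4B (0.91 and 0.91), and ADAMTS2 from 0.89 to 0.78 for TXN, beside SLC16A1 (0.85 and 0.92).

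The other selenoprotein genes gave a wider picture of the family. Of 16, 12 were tested in differentiation, where 2 rose and 6 fell (of all genes 33.9% rose and 36.8% fell), with a median of -0.36 against -0.015 over all genes. DIO3, which inactivates thyroid hormone, rose (1.59, SE 0.062, adjusted p = 6.08e-10), and TXNRD1, the cytosolic thioredoxin reductase, fell (-0.79, SE 0.065, adjusted p = 4.14e-07). With acrylamide IC5, 5 of 13 tested rose and 2 fell, against 20.5% and 21.5% of all genes (median 0.13, all genes -0.008). TXNRD1 went from 1449.7 ± 154 in control to 2780.4 ± 288, a rise of 0.98 (SE 0.12, adjusted p = 6.50e-11), and MSRB1 rose as well (0.79, SE 0.24, adjusted p = 0.00508). With valproic acid IC5, 4 rose and 1 fell, against 14.5% and 12.4% of all genes, led by SELENOV (1.31, SE 0.41, adjusted p = 0.0113) and SELENOM (1.19, SE 0.29, adjusted p = 0.000881), of which SELENOV was near the lower limit in control (7.39 ± 5.26). With methyl mercury IC5, 0 rose and 2 fell, with and without replicate 8 of IC20/100. Of all genes 4.85% rose and 6.06% fell with that library, and 7.27% and 7.37% without it. With it the median was -0.015 (all genes 0.0063). The 2 genes were DIO3 (-0.22, SE 0.059, adjusted p = 0.00620) and SELENON, a protein of the endoplasmic reticulum (-0.17, SE 0.04, adjusted p = 0.00159). TXNRD1 was not called there (0.19, SE 0.12, adjusted p = 0.343).

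**Figure D4:**
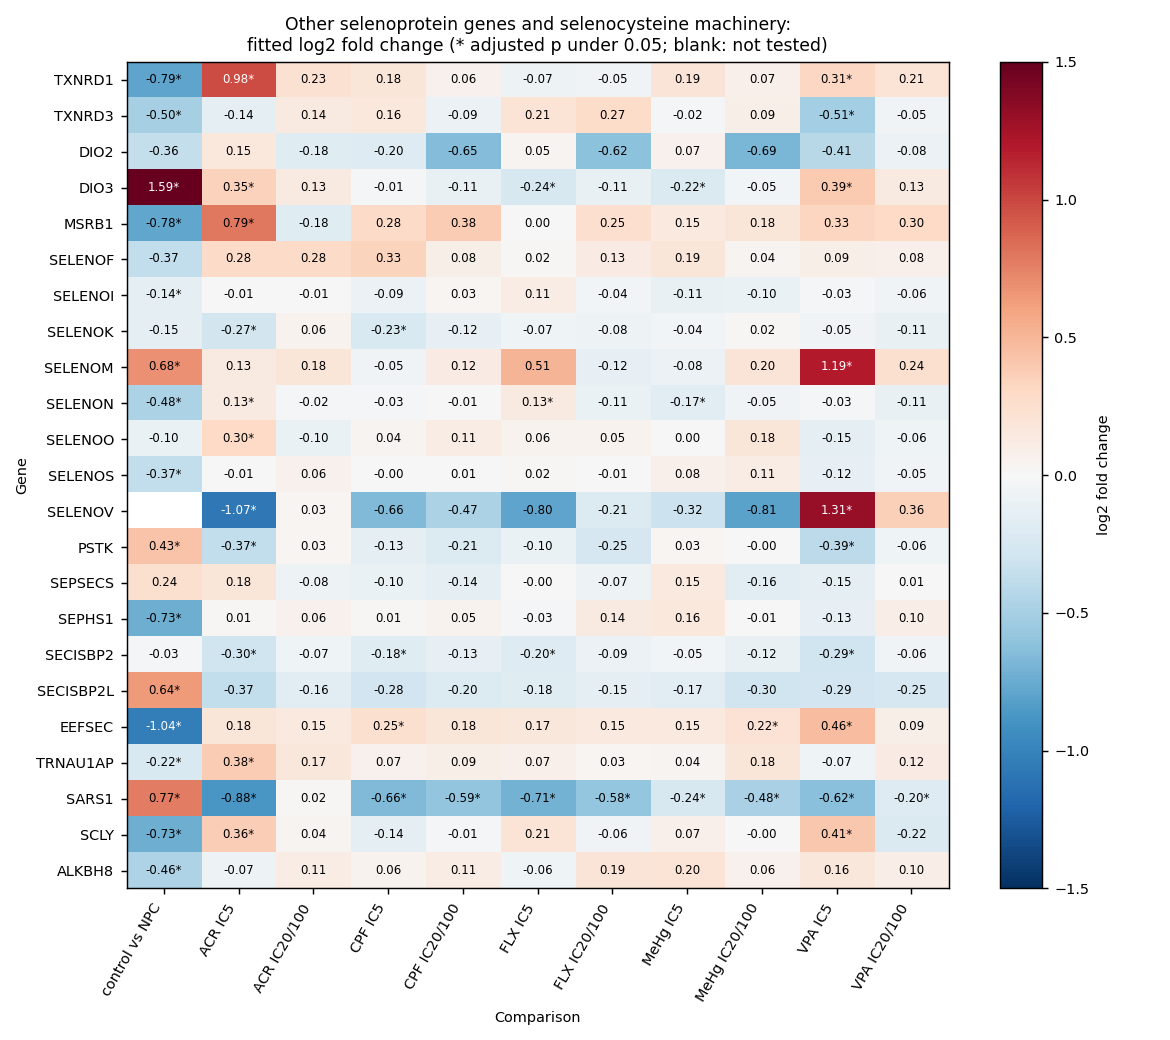
Fitted log2 fold change of the other selenoprotein genes and of the genes for selenocysteine synthesis and insertion (rows) in the same comparisons (columns), with an asterisk at an adjusted p under 0.05. SARS1 is lower in 9 of 10 exposures, and TXNRD1 and MSRB1 stand out with acrylamide IC5.

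Of 10 genes that make and insert selenocysteine, 1 was called in nearly every exposure. In differentiation 3 rose and 5 fell, where 33.9% of all genes rose and 36.8% fell, led by EEFSEC, the elongation factor for selenocysteine (-1.04, SE 0.066, adjusted p = 3.82e-08). SARS1, the synthetase that charges both serine and selenocysteine transfer RNA with serine, ranged around 5032 ± 385 in control and was lower in 9 of the 10 exposures. It fell from there to 2726 ± 97.7 with acrylamide IC5 (-0.88, SE 0.054, adjusted p = 3.83e-24), and to 4256 ± 229 and 3621 ± 637 with methyl mercury IC5 and IC20/100, differences of -0.24 (SE 0.054, adjusted p = 0.00111) and -0.48 (SE 0.054, adjusted p = 4.49e-11). Without replicate 8 the difference at IC20/100 was -0.56 (SE 0.044, adjusted p = 2.24e-17). SARS1 was the only gene of the list called with methyl mercury IC5 (0 higher, 1 lower, median 0.059). Of all genes 4.85% rose and 6.06% fell there. Over the 10 exposures the share of all genes that fell ran from 0.00993% (acrylamide IC20/100) to 21.5% (acrylamide IC5). Of the receptors for SELENOP, LRP8 fell with methyl mercury at IC5 (-0.37, SE 0.093, adjusted p = 0.00396) and IC20/100 (-0.30, SE 0.093, adjusted p = 0.0165, a call lost without replicate 8, at an adjusted p of 0.0798) and with acrylamide IC5 (-0.48, SE 0.093, adjusted p = 1.45e-05), and LRP2 rose in differentiation (1.38, SE 0.12, adjusted p = 5.79e-07).

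Calls in neighbouring redox lists are read against the shares of all genes, which were 20.5% higher and 21.5% lower with acrylamide IC5 and 4.85% and 6.06% with methyl mercury IC5. Of 15 other thioredoxin and peroxiredoxin genes, 6 rose and 3 fell with acrylamide IC5, among them RRM2, a subunit of ribonucleotide reductase (1.18, SE 0.12, adjusted p = 1.05e-13), TXNIP, the inhibitor of thioredoxin (-0.99, SE 0.045, adjusted p = 2.61e-31), and PRDX1 (0.65, SE 0.067, adjusted p = 2.11e-13). With methyl mercury IC5 1 rose and 0 fell, PRDX6 (0.23, SE 0.055, adjusted p = 0.00154). Without replicate 8 of IC20/100 that count was 3 and 1, where 7.27% of all genes rose and 7.37% fell. In the glutathione and glutaredoxin list of 12 genes, 5 rose and 1 fell with acrylamide IC5, led by GPX7 (-0.69, SE 0.075, adjusted p = 1.37e-12), which was the lower one, and GLRX5 (0.41, SE 0.073, adjusted p = 2.40e-06). With methyl mercury IC5 0 of these 12 passed by limma or edgeR, and 2 at an unadjusted p under 0.05. Of 12 further NRF2 targets, 5 rose and 2 fell with acrylamide IC5, with NQO1 at 1.70 (SE 0.11, adjusted p = 1.34e-22) and the cystine transporter SLC7A11 at -2.10 (SE 0.13, adjusted p = 1.30e-23). With methyl mercury IC5 1 rose and 2 fell, and NQO1 was not called (0.22, SE 0.11, adjusted p = 0.215). Without replicate 8 of IC20/100, 2 rose and 2 fell, against 7.27% and 7.37% of all genes. With methyl mercury IC20/100, where 8.21% of all genes rose and 7.6% fell, the counts of all 3 lists changed with replicate 8. Of the 12 NRF2 targets 1 rose and 3 fell with it, and 0 and 4 without it (6.67% and 6.74% of all genes). SLC7A11 fell in both fits, with a difference of -1.83 (SE 0.13, adjusted p = 2.51e-19) with it and -1.73 (SE 0.13, adjusted p = 9.13e-19) without it. The thioredoxin and peroxiredoxin counts were 3 and 1 with it and 0 and 3 without it, and the glutathione counts 3 and 0 with it and 1 and 1 without it.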

How the data were processed

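Polyadenylated RNA of 96 libraries, 8 per group, was sequenced from a stranded kit in 6 runs of 16 libraries, per the labels' protocols. Per the submitters' processing notes, reads were handled with bcl2fastq, FastQC 0.11.8, MultiQC 1.0, Salmon 1.3.0 and DESeq2 1.30.0 on GRCh38. Their annotation release was not stated.

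The deposited table is a signal: reads per gene that the authors divided by 1 size factor per library. Whole reads were recovered from the steps between its values (100% of positive values within 0.001 of a read).

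From there, log2(value + 2) was fitted in R 4.3.3 by limma 3.58.1, using a trended prior and terms for group and run. Genes at 10 or more in at least 8 libraries were kept: 18063 for NPC against control (16 libraries, 9 residual degrees of freedom) and 20136 for the 88 day 10 libraries (72). P-values were adjusted by Benjamini and Hochberg over all genes of a fit. The code was tested on simulated data. Of the 336 pairs of libraries within groups, 0 had recovered reads alike within counting error (chi-square divided by its degrees of freedom, at least 15.0). Alternatives were a pseudocount of 8, no filter, recovered reads scaled to depth (RPM), edgeR 4.0.16 on recovered reads, no run term, replicate numbers as a block, only the groups compared, and leaving out methyl mercury IC20/100 replicate 8. The use of the latter for gene lists, the order of levels and likeness was chosen after seeing the data. Same-numbered libraries of different groups correlated by more than 0.1 in every pair in 0 of 20 comparisons, so no pairing was used. In 4 of the 20 the number and the run coincide and cannot be told apart. With run removed, those 4 could not meet the rule. In the other 16, same-numbered libraries had a median correlation of 0.0798 to 0.195, against 0.0331 to 0.0889 for other pairs. The same-numbered median was the higher one in each of the 16.

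The members, the 17 gene lists and the comparisons were chosen with earlier results of these data known. All 10 members are named in every comparison, and up to 4 called genes of largest change from other lists, of which the text gives a selection. For likeness, the 2 protein-coding genes with the highest Pearson r over 11 group means are named. Symbols and selenocysteine codons come from GENCODE 29, matched by identifier, which types GPX1 as a polymorphic pseudogene. Python 3.11.15, pandas 2.3.3 and matplotlib 3.10.9 made tables and plots. Some marker and overlapping genes are not reported here.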

Additional observations from a re-analysis of the deposited data

Results flagged for a closer look

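In 120 sets of 8 values (10 members in 12 groups), 14 values lay far from the other 7 by Dixon's test at 0.526. Chance alone gives that in about 1 of 20 independent sets. The sets of different members share the same libraries, so the 14 cannot be set against that rate. Of the 14 values, 6 came from methyl mercury IC20/100 replicate 8: GPX1 at 1904, GPX4 at 4069, SELENOW at 3510.1, SELENOH at 2507, SEPHS2 at 1263 and TXN at 2972.

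In replicate 3 of the same group GPX3 was high at 106 and SELENOP low at 43.9. At methyl mercury IC5, TXNRD2 was high in replicate 3 at 138 and SELENOW low in replicate 4 at 1134. Fluoxetine IC5 had a high GPX4 in replicate 4 at 3102 and a high TXNRD2 in replicate 5 at 101. GPX3 was high in fluoxetine IC20/100 replicate 3 at 153, and SEPHS2 in valproic acid IC20/100 replicate 7 at 870.0.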

How the results depend on the processing

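The 9 called members of differentiation were 9 in each of its 6 alternatives, and 1514 of 1580 single-gene results stayed on their side of the threshold (37 became called, 29 lost the call, 0 reversed). Except where stated above, the shares of all genes called in the alternatives are not given. The counts below therefore cannot be read as an excess over all genes. The counts of called members that moved by more than 1.5 times were as follows. With only the groups compared, acrylamide IC20/100 had 0, chlorpyrifos IC5 3, fluoxetine IC20/100 2, methyl mercury IC5 2 and IC20/100 1, and valproic acid IC20/100 0 (all by limma, edgeR on all groups gave 1 for each count of 0, the next sentence included). Between concentrations that fit gave 2 for acrylamide, 0 for methyl mercury and 2 for valproic acid, and 8 for methyl mercury against valproic acid. With no filter, fluoxetine IC5 had 1, methyl mercury IC20/100 1, and methyl mercury against chlorpyrifos 1 and against valproic acid 2. On recovered reads scaled to depth (RPM), methyl mercury IC5 had 2, IC20/100 1 and their contrast 2, and the acrylamide contrast 2. With no run term, fluoxetine IC5 and methyl mercury IC20/100 had 1 each. With replicate numbers as a block, fluoxetine IC5 had 1, methyl mercury IC5 2 and IC20/100 1, and no other count moved. With edgeR, methyl mercury against chlorpyrifos had 1. Without methyl mercury IC20/100 replicate 8, chlorpyrifos IC5 had 4, fluoxetine IC20/100 2, methyl mercury IC5 4 and IC20/100 1, the contrasts of concentrations 3 for acrylamide, 1 for fluoxetine, 2 for methyl mercury and 3 for valproic acid, and methyl mercury against valproic acid 8. Leaving out that library lowered the standard errors of 8 members and raised those of GPX3 and SELENOP slightly. The causes were not tested. At this depth GPX3 and SELENOP had median coefficients of variation of 44.7% and 28.3%, which limits the differences that could be detected in them.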
